A study of Homo sapiens with 18 samples.

Results

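The simple epithelial and luminal keratins described here were the 7 rows of the deposited expression table whose Ensembl identifiers belong to KRT7, KRT8, KRT18, KRT19, KRT20, KRT23 and KRT80, out of 16575 genes in all. They were chosen by name and not by a rule on their values, although earlier results of these data were known. The 18 libraries were made by CAGE-seq, in which reads begin at the cap of an RNA and so count transcripts at their start sites. They come from RT-112, CAL-29 and HT-1376, established lines of human bladder cancer, each carried as 6 cellular variants with 1 library per variant and line. All cells were transduced with lentivirus in 2 rounds, with WWOX (W) or its blank control (K) first and AP-2α (A), AP-2γ (C) or blank control (K) second. KK was therefore the double control, which carried both empty vectors and both drug selections, KA and KC held AP-2α or AP-2γ alone, WK held WWOX alone, and WA and WC held WWOX with AP-2α or AP-2γ. Transduced clones were selected with puromycin and then G418, and the number of clones in a variant is not given in the sources used here. RT-112 was grown in another medium (RPMI-1640) than HT-1376 and CAL-29 (DMEM), so that the line and its medium cannot be told apart. The values are normalised tag counts (CPM), and since CAGE counts 1 end per transcript, levels of different genes can be compared without a correction for length.

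Keratins are the intermediate filament proteins of epithelial cells. They polymerise only as pairs of an acidic type I chain and a basic type II chain, so that the 2 types are made together. KRT8 (type II) and KRT18 (type I) form the founding pair of simple epithelia, KRT7 (type II) and KRT19 (type I) join them in ducts and in the urothelium, and KRT20 (type I) is a marker of the superficial umbrella cells that line the bladder lumen. KRT80 is a type II keratin found in many epithelia and KRT23 is a type I keratin of epithelial cells. KRT7, KRT8, KRT18, KRT19 and KRT20 are used in pathology to tell epithelial tumors apart.

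By GENCODE 44 on GRCh38, the type II genes and KRT18 lay in the keratin cluster of chromosome 12, with KRT7 (ENSG00000135480.16) at chr12:52232520-52252186 on the forward strand, KRT8 (ENSG00000170421.12) at chr12:52897187-52949954 on the reverse strand, KRT18 (ENSG00000111057.11) at chr12:52948871-52952906 on the forward strand and KRT80 (ENSG00000167767.14) at chr12:52168996-52192014 on the reverse strand. The other type I genes lay in the cluster of chromosome 17 on the reverse strand, with KRT19 (ENSG00000171345.13) at chr17:41523617-41528308, KRT20 (ENSG00000171431.4) at chr17:40875889-40885242 and KRT23 (ENSG00000108244.17) at chr17:40922700-40937646. The records of KRT8 and KRT18 overlap head to head on opposite strands. Strand use in the counting is not given in the sources used here, so reads that start inside the overlap cannot be assigned to either gene with certainty.

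Each library had between 13357102 and 17958572 recovered reads on genes, and 3 reads, taken as the limit that a count of 0 allows, were worth 0.158 to 0.213 CPM. It allows for counting error and nothing else. The library labelled CAL-29 KC held 46 of the 47 genes that marked the HT-1376 control library and 7 of the 68 that marked that of CAL-29. Its levels are given apart, and the levels of CAL-29 rest on 5 libraries. Where a fit or check included this library, that is said. All 7 epithelial markers of a fixed list (EPCAM, CDH1, CLDN4, CLDN7, ESRP1, ESRP2 and ELF3) were above 1 CPM in every library of each line. The signal assigned to WWOX in W libraries was 1.35 to 2.43 times that of the matched K libraries in CAL-29, 0.778 to 1.36 times in HT-1376 and 0.713 to 0.858 times in RT-112. Transcripts of a vector need not be assigned to the gene's own start site, so this is no firm check of the labels. TFAP2A with the AP-2α vector gave a log2FC of 0.51 (SE 0.21, limma unadjusted p = 0.0264, adjusted p = 1.00) and TFAP2C with the AP-2γ vector 1.40 (SE 0.35, limma unadjusted p = 0.00104, adjusted p = 0.999), so neither passed. The library labelled RT-112 WA, which should lack the AP-2γ vector, had 180 CPM of TFAP2C, against 56.2 in RT-112 WK and 143 in RT-112 WC. The level of TFAP2A in HT-1376 WA was 69.9 CPM, against 76.9 in WK. Fits for AP-2 and for WA are therefore given with and without the library labelled RT-112 WA. Without it TFAP2A with the AP-2α vector gave 0.60 (SE 0.22, limma unadjusted p = 0.0151, adjusted p = 0.9998). TFAP2C with the AP-2γ vector then gave 1.45 (SE 0.28, limma unadjusted p = 0.000121, adjusted p = 0.869). Each library is a single culture of a variant, so p-values between lines measure the spread between variants of 1 line and not between independent cultures. Whether the W libraries of a line came from separate WWOX transductions is not given in the sources used here. The SDs for WWOX within a line therefore measure the spread between variants that differ in the second transduction. The p-values and SEs for WWOX within a line come from 1 fit that shares its estimate of the spread over all lines. Libraries of the other lines therefore enter them, and a narrow or wide spread in 1 line is not its own. Neither the SDs nor the p-values measure the spread between independent WWOX transductions.

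**Figure D1:**
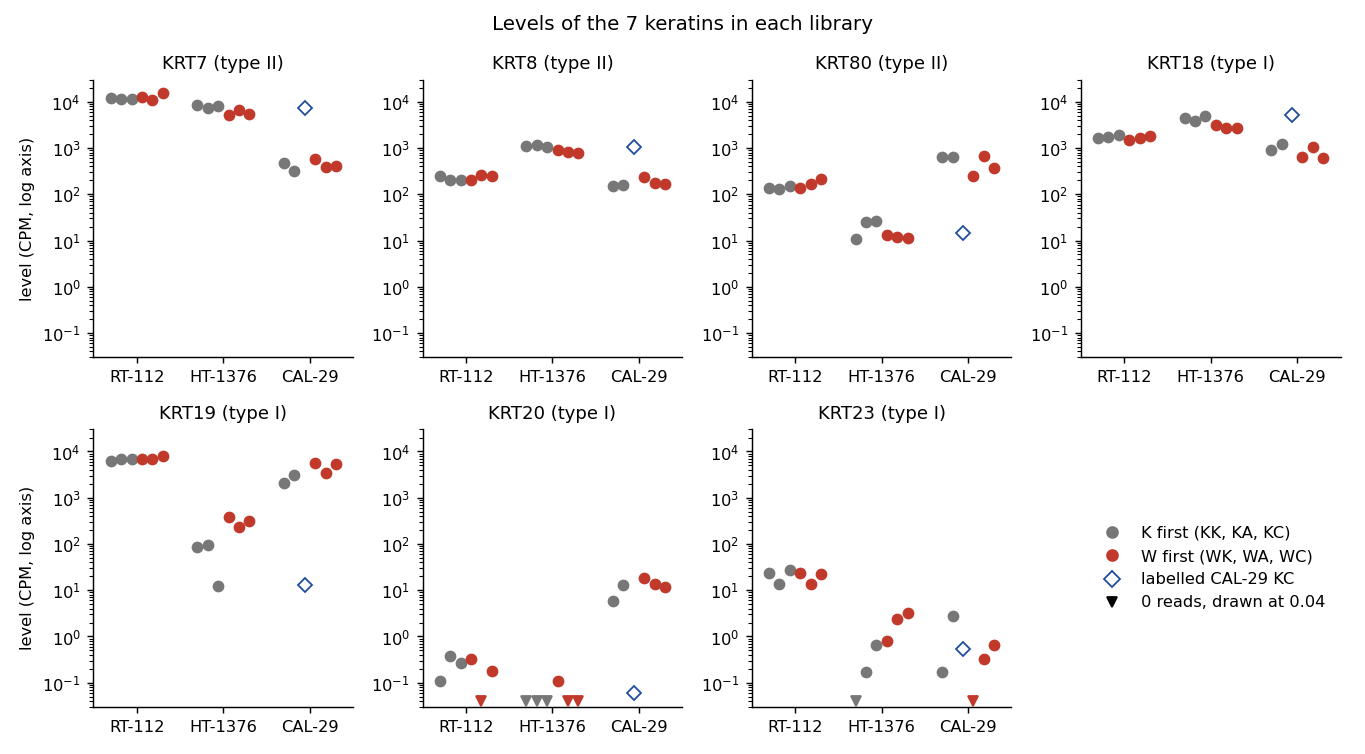
Levels of the 7 keratins in CPM on a log axis, with 1 point per library, the K and W libraries of each line in grey and red in the order KK, KA, KC, WK, WA and WC, and the library labelled CAL-29 KC as an open diamond. KRT7 was lowest in CAL-29, KRT19 and KRT80 were lowest in HT-1376, KRT20 was above 5 CPM only in CAL-29 and KRT23 only in RT-112, and the diamond sits with HT-1376.

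The 7 keratins together took 2.14% ± 0.22 (SD, n = 6) of the CPM of an RT-112 library, 1.17% ± 0.22 (SD, n = 6) in HT-1376 and 0.592% ± 0.118 (SD, n = 5) in CAL-29. Their make-up differed from line to line. KRT7 and KRT19 led in RT-112, KRT7 and KRT18 in HT-1376, and KRT19 with KRT18 and KRT80 in CAL-29. These are bulk cultures, in which fewer cells that express a gene and less RNA per cell cannot be told apart. Of the 5 members that passed the filter of 5 CPM in every line (KRT7, KRT8, KRT18, KRT19 and KRT80), 5 differed between RT-112 and HT-1376, 5 between HT-1376 and CAL-29 and 4 between RT-112 and CAL-29 at an adjusted limma p under 0.05. The background was high, since 61.9%, 61% and 71.5% of the 13022 genes tested passed in the same comparisons. The share among the keratins is therefore not a result about them, and neither is the lack of overlap between the libraries of 2 lines, which held for 6 of 7 members in each comparison, against 44.2%, 31.6% and 54.5% of all genes. The median log2FC of all genes was -0.43, -0.47 and -0.84 in these comparisons on the deposited scale and -0.06, -0.10 and -0.12 after TMM scaling, and the calls split into 2498 higher and 5557 lower, 2298 and 5646, and 1994 and 7320, against 3779 and 3888, 3443 and 3978, and 4183 and 4846 after TMM scaling. The direction of each difference between lines named here was the same on both scales.

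KRT7, the type II keratin of ducts and urothelium, was the most abundant member in RT-112 and HT-1376. Its level in RT-112 ranged from 10937 to 15560 CPM (median 11864), and it ranked 2 among all genes in each of the 6 libraries of that line. In HT-1376 it ranged from 5108 to 8612 CPM (median 6990) and ranked between 2 and 7. In CAL-29 the 5 libraries held 485 (KK), 312 (KA), 567 (WK), 385 (WA) and 399 CPM (WC), and its rank fell to between 255 and 507. The 3 lines did not overlap. KRT7 was lower in CAL-29 than in RT-112 by a log2FC of 4.85 (SE 0.21, limma adjusted p = 7.2e-10) and lower than in HT-1376 by 3.99 (SE 0.21, limma adjusted p = 3.8e-09), while RT-112 exceeded HT-1376 by 0.87 (SE 0.20, limma adjusted p = 0.00191). The last call was lost when the library labelled CAL-29 KC was included (0.87, limma adjusted p = 0.145). The antisense gene KRT7-AS was listed at 0 in RT-112 and HT-1376 and at 0.88 (KA) to 6.96 CPM (WK) in CAL-29, the line with the least KRT7. Among the 5 CAL-29 libraries, however, KRT7 itself was also lowest in KA and highest in WK.

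KRT8, the type II chain of the founding pair, was highest in HT-1376 as deposited. The deposited level was 787 to 1181 CPM in HT-1376 (median 964.8), 201 to 259 in RT-112 (median 225) and 154 to 236 in CAL-29 (median 164). HT-1376 exceeded both other lines without overlap, RT-112 and CAL-29 overlapped, and the log2FC was -2.10 for RT-112 minus HT-1376 (SE 0.16, limma adjusted p = 1.2e-07) and 2.46 for HT-1376 minus CAL-29 (SE 0.17, limma adjusted p = 6.5e-08). RT-112 minus CAL-29 gave 0.36 (SE 0.17, limma adjusted p = 0.0783), and 1.15 (limma adjusted p = 0.000157) after TMM scaling.

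This order depended on where the reads of a processed pseudogene were put. KRT8P3, a retrotransposed copy of KRT8 inside ASPH on the opposite strand, was listed at 891 to 1342 CPM in RT-112 and 288 to 467 in CAL-29, but at 18.2 to 28.4 in HT-1376. When the KRT8 transcript was aligned to the reference genome around this copy, 97.2% of 1525 aligned bases were identical, and bases 20 to 75 of KRT8 matched the stretch just before the annotated pseudogene in 56 of 56 bases. The reads were 75 bases long, so a read from the start of a KRT8 transcript can match both places over this stretch. KRT8P3 held 81.5% to 87.0% of the summed signal of both genes in RT-112, 58.8% to 74.4% in CAL-29 and 2.15% to 2.54% in HT-1376. Summed, both genes came to 452 to 628 CPM in CAL-29, 806 to 1207 in HT-1376 and 1094 to 1591 in RT-112. The difference between RT-112 and HT-1376 then changed sign, to a log2FC of 0.51 for RT-112 minus HT-1376 (limma adjusted p = 0.00807), and RT-112 minus CAL-29 rose to 1.43 (limma adjusted p = 3.5e-06). HT-1376 minus CAL-29 kept its direction at 0.92 (limma adjusted p = 0.000439). Whether transcripts of KRT8 or of the pseudogene gave these reads cannot be told apart here.

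**Figure D2:**
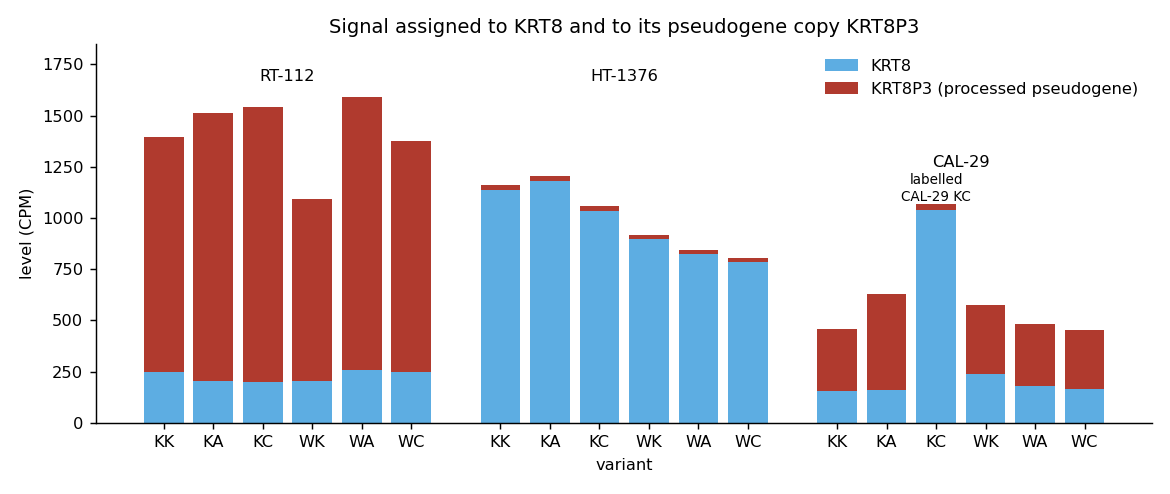
Signal assigned to KRT8 and to the processed pseudogene KRT8P3 in each library, as stacked bars in CPM for the 6 variants of the 3 lines. Most of the stacked height was on KRT8P3 in RT-112 and in 5 CAL-29 libraries, and 2.15% to 2.54% of it in HT-1376. The library labelled CAL-29 KC had 2.37% on KRT8P3.

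KRT80 had its highest level in CAL-29, at 650 (KK), 633 (KA), 248 (WK), 680 (WA) and 375 CPM (WC). RT-112 held 130 to 214 CPM (median 147) and HT-1376 10.7 to 26.3 CPM (median 12.8). The lines did not overlap, and all differences between them passed the test, with a log2FC of 3.28 for RT-112 minus HT-1376 (SE 0.26, limma adjusted p = 1.5e-07), -5.00 for HT-1376 minus CAL-29 (SE 0.28, limma adjusted p = 5.8e-09) and -1.71 for RT-112 minus CAL-29 (SE 0.28, limma adjusted p = 0.000101). With the library labelled CAL-29 KC, the last was -0.80 and no longer passed (limma adjusted p = 0.299).

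KRT18, the type I partner of KRT8, was highest in HT-1376 at 2650 to 4956 CPM (median 3435), followed by RT-112 at 1469 to 1934 (median 1666) and CAL-29 at 599 to 1207 (median 930.0). No pair of lines overlapped. RT-112 minus HT-1376 gave a log2FC of -1.05 (SE 0.18, limma adjusted p = 0.000198), HT-1376 minus CAL-29 1.97 (SE 0.19, limma adjusted p = 1.7e-06) and RT-112 minus CAL-29 0.92 (SE 0.19, limma adjusted p = 0.000750). With the library labelled CAL-29 KC the last fell to 0.55 (limma adjusted p = 0.1203). KRT18 exceeded KRT8 in every library, by 6.32 to 9.63 times in RT-112, 3.18 to 4.80 times in HT-1376 and 2.77 to 7.51 times in CAL-29. With the reads on KRT8P3 added to KRT8, the ratio in RT-112 was 1.03 to 1.35, that in CAL-29 1.14 to 2.15 and that in HT-1376 3.11 to 4.68.

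KRT19, the smallest keratin, which lacks the usual tail domain, showed the widest span of the abundant members. RT-112 held 6248 to 7910 CPM (median 6792) and CAL-29 2104 (KK), 3041 (KA), 5569 (WK), 3476 (WA) and 5277 (WC). HT-1376 held 84.7 (KK), 94.9 (KA), 12.6 (KC), 378 (WK), 235 (WA) and 308 CPM (WC). The 3 lines did not overlap, and within HT-1376 the highest library was 30.0 times the lowest, against 1.27 times in RT-112 and 2.65 times in CAL-29. RT-112 exceeded HT-1376 by a log2FC of 5.84 (SE 0.45, limma adjusted p = 1.1e-07) and CAL-29 by 1.23 (SE 0.48, limma adjusted p = 0.0340), and HT-1376 minus CAL-29 gave -4.61 (SE 0.48, limma adjusted p = 3.1e-06). The difference between RT-112 and CAL-29 did not pass without the KK libraries (1.15, limma adjusted p = 0.0904). At 13.3 CPM the library labelled CAL-29 KC was next to HT-1376 KC at 12.6. The pseudogene KRT19P1 was listed at 0% to 0.307% of the level of KRT19, so few reads were assigned to it.

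KRT20, the umbrella cell marker, was above 5 CPM in 1 line. The 5 CAL-29 libraries held 5.83 (KK), 12.9 (KA), 18.8 (WK), 13.5 (WA) and 12.0 CPM (WC). RT-112 held 0 to 0.37 CPM, or at most 7 reads in a library, and HT-1376 had 2 reads in WK and none in the other libraries, at or below the limit of 3 reads. KRT20 passed the filter only through CAL-29, so its difference from the other lines is given without a test. At 12.6 ± 4.64 CPM (SD, n = 5), KRT20 was far below KRT19 in the same line. The 250 bases before the start of KRT20, at chr17:40885243-40885492 on the reverse strand of GRCh38.p14 (RefSeq), are shown because this gene passed 5 CPM in 1 line only.

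KRT20 upstream region: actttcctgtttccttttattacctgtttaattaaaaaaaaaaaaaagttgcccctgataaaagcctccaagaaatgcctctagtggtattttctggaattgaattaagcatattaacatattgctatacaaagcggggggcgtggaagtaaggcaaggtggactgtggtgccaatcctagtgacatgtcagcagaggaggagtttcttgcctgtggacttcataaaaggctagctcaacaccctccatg

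No letters are in capitals because neither motif searched was found in this window on either strand. These were GCCNNNGGC, the core to which AP-2 factors bind, which 19.8% of 35116 RefSeq windows of this length hold, and TATAAA, which 10.7% hold. The window has a GC content of 41.2%, against a median of 58% over all windows. The absence of these letters says nothing of the factors. Entries for 2 of the 7 members were found in the promoter table, and that of KRT8 starts 21393 bases from the start used by GENCODE, so it is not shown.

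KRT23 was highest in RT-112, at 13.5 to 26.8 CPM (median 23.0), with the KA and WA libraries at 13.7 and 13.5 CPM and the other 4 at 22.8 or more. HT-1376 held 0 (KK), 0.17 (KA), 0.64 (KC), 0.80 (WK), 2.36 (WA) and 3.29 CPM (WC), and CAL-29 0.17 (KK), 2.71 (KA), 0 (WK), 0.33 (WA) and 0.67 (WC). These are 0 to 60 reads per library. KRT23 passed the filter only through RT-112, so its difference from the other lines is given without a test, and HT-1376 minus CAL-29 gave a log2FC of 0.37 (SE 0.54, limma adjusted p = 0.563).

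The order of the members differed between the lines. In RT-112 the medians ran KRT7, KRT19, KRT18, KRT8, KRT80, KRT23 and KRT20, and only KRT8 and KRT80 overlapped. In HT-1376 they ran KRT7, KRT18, KRT8, KRT19, KRT80, KRT23 and KRT20, where KRT19 overlapped KRT80 through its KC library and KRT23 overlapped KRT20. In CAL-29 they ran KRT19, KRT18, KRT80, KRT7, KRT8, KRT20 and KRT23, with overlaps of KRT18 with KRT80 and of KRT80 with KRT7. KRT7 made up 55.4% to 60.3% of the summed keratin signal in RT-112 and 53.7% to 63.4% in HT-1376, but 5.81% to 11.2% in CAL-29, where KRT19 made up 48.6% to 77.3%.

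Since a filament pairs 1 type I with 1 type II chain, the sums of both types were compared. The ratio of type I to type II signal was 0.679 ± 0.054 (SD, n = 6) in RT-112, 0.485 ± 0.067 (SD, n = 6) in HT-1376 and 4.41 ± 1.65 (SD, n = 5) in CAL-29. It was below 1 in all 12 libraries of RT-112 and HT-1376 and above 2 in the 5 of CAL-29. Within CAL-29 it was 2.36 (KK), 3.85 (KA), 5.94 (WK), 3.65 (WA) and 6.28 (WC), so WK and WC, the libraries with most KRT19, stood highest. With the reads on KRT8P3 and KRT19P1 added, the means were 0.620, 0.483 and 3.37. Other keratins, such as those of stratified epithelia, also pair with these chains and are not in the ratio.

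**Figure D3:**
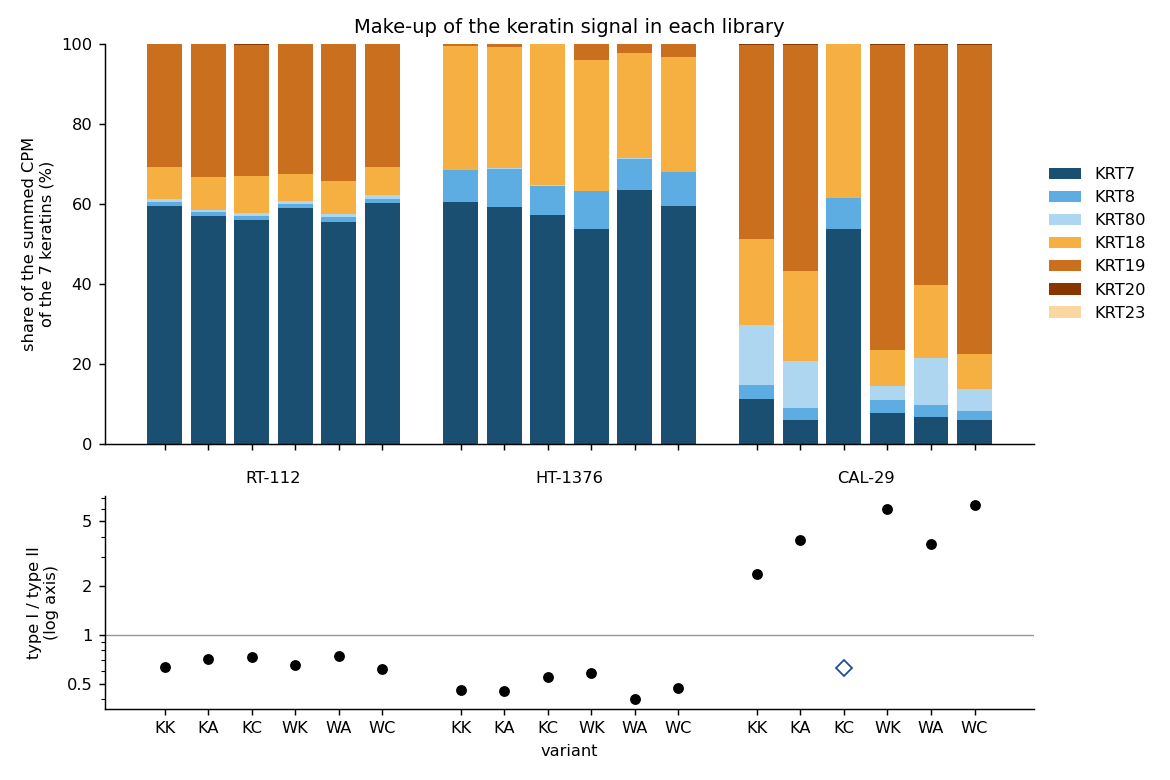
Upper panel, share of the summed CPM of the 7 keratins held by each member in each library, with type II members in blue and type I members in orange. Lower panel, ratio of type I to type II signal on a log axis, with the library labelled CAL-29 KC as an open diamond at 0.626. KRT7 held over 53% of the sum in every RT-112 and HT-1376 library, and the ratio was above 2 in the 5 other CAL-29 libraries.

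Whether WWOX changed the keratins was asked in each line by comparing the W with the K libraries. Pairs share the second transduction, and each log2FC comes from a fit with a term for it that is common to the lines. In CAL-29 the WC library had no matched K library, so the log2FC of that line rests partly on this term. In HT-1376, KRT19 rose with WWOX in 3 of 3 pairs. Its K libraries held 64.1 ± 44.9 CPM (SD, n = 3) and its W libraries 307 ± 71.7 (SD, n = 3), without overlap. The ratio of W to K was 4.46 in the pair without AP-2, 2.47 with AP-2α and 24.4 with AP-2γ, where KC was at 12.6 CPM. The log2FC was 2.67 (SE 0.53, limma adjusted p = 0.00831), over a background of 8.59% of all genes that passed in this line, and 4.21% of all genes that passed as higher in W. The call was kept without the KC library (1.69, limma adjusted p = 0.00324). It was lost without the WK library (2.59, limma adjusted p = 0.0527) and with the library labelled CAL-29 KC included, which left the log2FC as it was (limma adjusted p = 0.242). Over all 24 alternatives it passed in 22.

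KRT19 did not pass in the other lines. In RT-112 it was 6611 ± 315 CPM (SD, n = 3) in K and 7167 ± 646 (SD, n = 3) in W libraries, with overlap, and the log2FC was 0.11 (SE 0.53, limma adjusted p = 1.00). In CAL-29 it was 2104 and 3041 CPM in the K and 3476, 5277 and 5569 CPM in the W libraries, without overlap as deposited, and the log2FC was 1.03 (SE 0.60, limma adjusted p = 0.531). Division by the TMM factors of CAL-29 KA (1.19) and WA (1.57) turned its AP-2α pair and let the groups overlap. The effect in HT-1376 exceeded that in RT-112 by 2.56 (SE 0.74, limma adjusted p = 0.112) and that in CAL-29 by 1.64 (SE 0.80, limma adjusted p = 0.266), and the F test that the 3 effects are equal gave a limma adjusted p = 0.129. The background was 3.02% of genes for the F test, 1.27% for HT-1376 minus RT-112 and 0.591% for WWOX in CAL-29, where 0 of 7 members passed. A difference in the response of KRT19 between the lines was therefore not established.

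KRT23 was the other member that rose in HT-1376, from 0, 0.17 and 0.64 CPM in the K libraries to 0.80, 2.36 and 3.29 CPM in the W libraries. The log2FC was 1.74 (SE 0.47, limma adjusted p = 0.0374), and its difference from the effect in CAL-29 was 2.88 (SE 0.71, limma adjusted p = 0.0423), over a background of 3.85% of genes that differed so. In CAL-29 KRT23 was lower in W than in K in 2 of 2 pairs. The K libraries of HT-1376 held 0, 3 and 9 reads, close to the limit of 3 reads, and the W libraries 14, 37 and 60. The call in HT-1376 was lost with a pseudocount of 2 CPM (0.83, limma adjusted p = 0.110), in limma-voom (3.56, adjusted p = 0.0653) and in edgeR (3.16, adjusted p = 0.0529). It passed in 13 of 24 alternatives, and the difference between the lines in 10 of 24.

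On the deposited scale, the W libraries of HT-1376 lay below the K libraries in 3 of 3 pairs each for KRT18, KRT7 and KRT8. The groups did not overlap on that scale. KRT18 was 4365 ± 603 CPM (SD, n = 3) in K and 2845 ± 244 (SD, n = 3) in W (log2FC -0.61, SE 0.23, limma adjusted p = 0.112), KRT7 was 7994 ± 641 and 5751 ± 801 (log2FC -0.48, SE 0.24, limma adjusted p = 0.217) and KRT8 was 1116 ± 76 and 837 ± 56 (log2FC -0.41, SE 0.17, limma adjusted p = 0.134). None of the 3 passed in this comparison, although KRT18 did without the CAL-29 WA library (limma adjusted p = 0.0419). On this scale the median of all genes was -0.13, and it was 0.00 after TMM scaling. The TMM factors of HT-1376 were 1.16 for KA, 1.03 for WA and 0.943 for WK. Division by the factors turned the AP-2α pair of KRT7 and let the groups of KRT7 and KRT18 overlap, while KRT8 stayed apart. After TMM scaling 2 of the 7 members, KRT19 and KRT23, had an unadjusted limma p under 0.05 in HT-1376, against 4 before it. As deposited, K and W libraries did not overlap in HT-1376 for 5 of the 7 members, against 35.6% of all genes, in CAL-29 for 2 of 7 against 18.8% and in RT-112 for 0 of 7 against 21%. As deposited, KRT7 and KRT8 were higher in W in 2 of 2 pairs of CAL-29 (log2FC 0.18, SE 0.27, and 0.32, SE 0.19, limma adjusted p = 0.882 and 0.547). With TMM factors of 1.19 for CAL-29 KA and 1.57 for CAL-29 WA, the AP-2α pair turned for both genes. The effect on KRT8 differed between HT-1376 and CAL-29 by -0.73 (SE 0.25, limma adjusted p = 0.119).

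**Figure D4:**
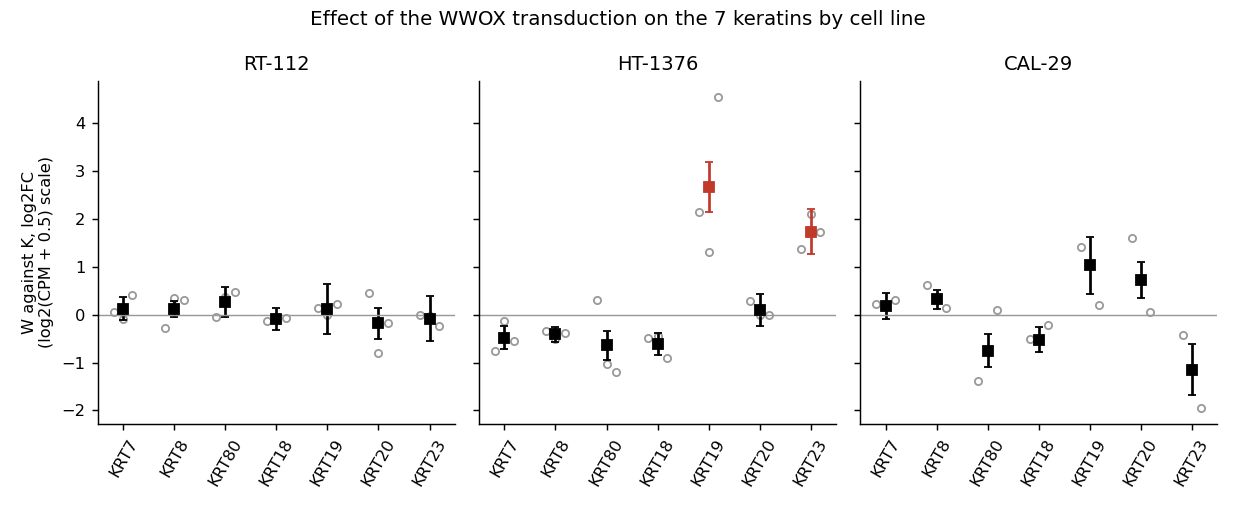
Effect of the WWOX transduction on the 7 keratins in each line, as log2FC of W against K on the log2(CPM + 0.5) scale. Squares with bars are the fitted effect and its SE, red where the adjusted limma p was under 0.05, and grey circles are the single W against K pairs, without the library labelled CAL-29 KC. KRT19 (2.67) and KRT23 (1.74) in HT-1376 are the red squares.

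Genes listed as markers of other cell types moved with WWOX in HT-1376 as well. The summed level of the 4 of 6 fibroblast markers with a row in the table (COL1A1, COL1A2, COL3A1 and LUM) was 5.33 to 12.6 CPM in K and 36.6 to 59.6 CPM in W libraries, with COL1A1 higher by a log2FC of 1.77 (SE 0.48, limma adjusted p = 0.0370). COL1A2 was at 1.49 to 4.37 CPM in K and 18.9 to 46.1 in W libraries, and since it passed the filter only through W libraries it is given without a test. The leukocyte marker CD68 was 1.70 to 2.38 CPM in K and 6.07 to 14.7 in W, and CDH5, the 1 of 4 endothelial markers with a row, was 2.10 to 4.11 in K and 0.19 to 0.71 in W. DCN, PDGFRB, PTPRC, CD3E, LYZ, PECAM1, VWF and KDR had no row. Their part in the result for KRT19 was not tested. The epithelial markers summed to 903 to 1004 CPM in K and 797 to 1001 CPM in W libraries of HT-1376.

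Over all lines, KRT18 and KRT19 lay on opposite sides of their K libraries in most pairs. As deposited, KRT18 was lower in W than in K in 8 of 8 pairs, at 0.906 to 0.964 times in RT-112, 0.535 to 0.738 times in HT-1376 and 0.703 to 0.865 times in CAL-29, with a log2FC of -0.40 (SE 0.15, limma unadjusted p = 0.0157, adjusted p = 0.334). TMM factors of 0.842 for RT-112 KC and 0.726 for RT-112 WC turned its AP-2γ pair in RT-112. With TMM scaling, in limma-voom and in edgeR, 1 of the 7 members had an unadjusted p under 0.05 for WWOX, against 2 in limma as deposited. KRT19 was higher in 7 of 8 pairs as deposited, the exception being AP-2α in RT-112 at 0.995 times, with a log2FC of 1.29 (SE 0.41, limma unadjusted p = 0.00611, adjusted p = 0.296). Without the library labelled RT-112 WA the values were -0.41 (limma adjusted p = 0.403) and 1.45 (limma adjusted p = 0.324). Neither passed, and the effect of WWOX over all lines passed for 0 of 13022 genes (0%) in limma and 1598 at an unadjusted p under 0.05, for 70 in limma-voom and for 16 in edgeR, none of which was a keratin of this group. W was higher in 4 of 8 pairs for each of KRT7, KRT8 and KRT80 and in 3 of 8 for KRT23. KRT20 was higher in 4 of 8 as well, but its AP-2α and AP-2γ pairs in HT-1376 had 0 CPM on both sides. No RT-112 or HT-1376 library had over 7 reads of KRT20. In CAL-29 it was higher in W in 2 of 2 pairs as deposited, at 1.05 to 3.23 times.

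With AP-2α and AP-2γ none of the 7 members passed the threshold in limma, limma-voom or edgeR. The effects over all lines passed for 0 of 7 members and 0 of 13022 genes (0%) in limma for either factor, with 0 of 7 members at an unadjusted p under 0.05, and edgeR and limma-voom called 0 of 7 members too. For AP-2α the member log2FC ran from -0.22 (KRT7, SE 0.19) to 0.51 (KRT23, SE 0.47). For AP-2γ they ran from -0.51 (KRT19, SE 0.51) to 0.84 (KRT23, SE 0.50). Without the library labelled RT-112 WA 0 of 7 members passed for either factor, with -0.21 (KRT7, SE 0.21) to 0.70 (KRT23, SE 0.50) for AP-2α and -0.55 (KRT19, SE 0.51) to 0.81 (KRT23, SE 0.50) for AP-2γ. KRT7 was lower with AP-2α than with the second control in 5 of 6 pairs, which include that of RT-112 WA at 0.876 times. KRT80 was higher with AP-2γ in 4 of 5 pairs, at 0.841 to 2.45 times. KRT19 with AP-2γ was 0.149 times the control in HT-1376 without WWOX and was 0.816 to 1.15 times in the other 4 pairs, and without HT-1376 the log2FC turned to 0.25.

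**Figure D5:**
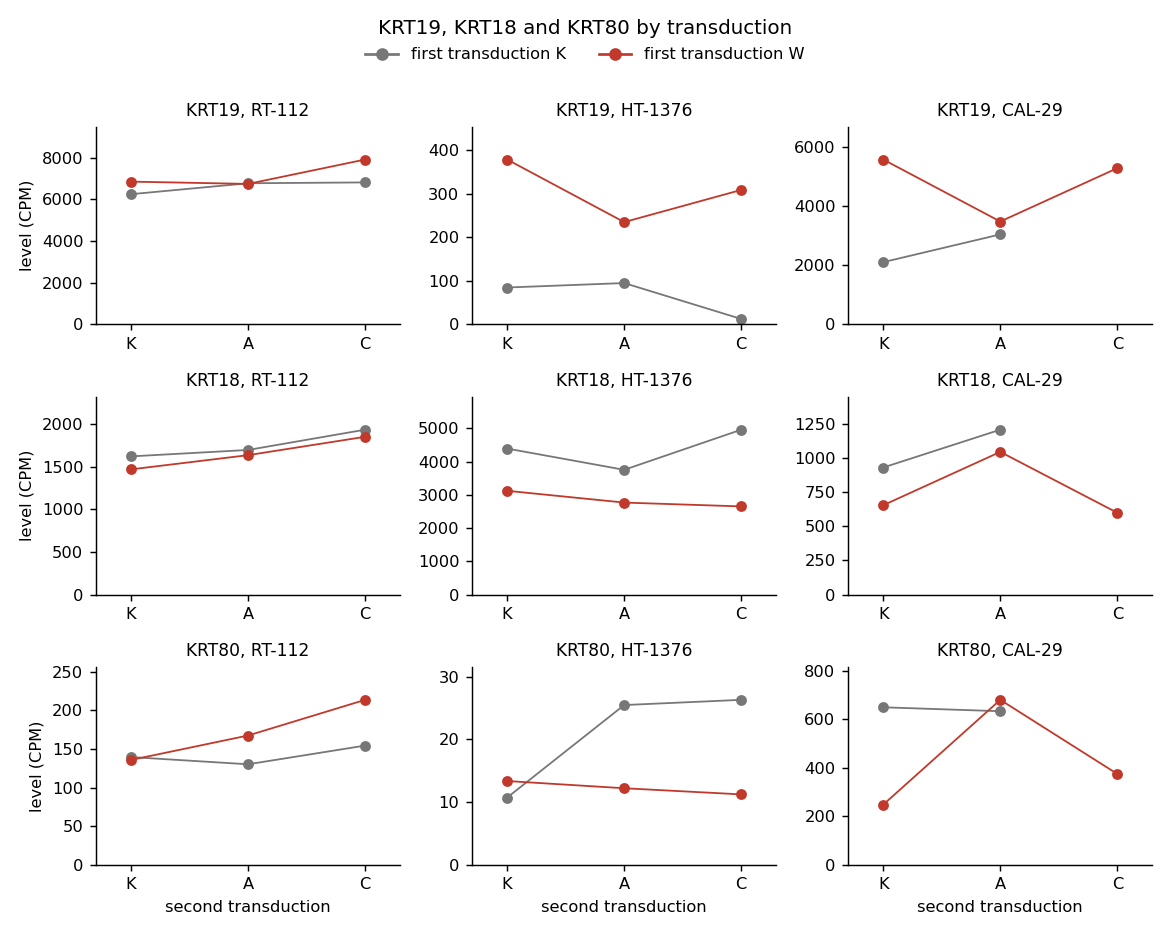
Levels of KRT19, KRT18 and KRT80 in CPM by second transduction (K, A or C) in each line, with the first transduction K in grey and W in red and the library labelled CAL-29 KC left out. KRT18 lies lower in red than in grey in every pair, and KRT19 lies higher in red in each pair of HT-1376 and CAL-29.

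The study compared each variant with KK over the 3 lines as replicates. In these 5 comparisons 0 of 7 keratins and 0 of 13022 genes (0%) passed in limma, with 7 to 84 genes but 0 of the 7 keratins at an unadjusted p under 0.05, and limma-voom and edgeR called 0 of 7 members. The comparisons share the KK libraries. For KRT19 the log2FC of WK over KK was 1.23, that of KA 0.27, that of KC -3.28, that of WA 0.77 and that of WC 1.17, each with an SE of 2.43, the spread between lines being part of the error. In the same order KRT18 had -0.38, 0.07, 0.97, -0.16 and -0.39, each with an SE of 0.74. Without the library labelled RT-112 WA, the log2FC of WA over KK was -0.20 for KRT19 (SE 2.75) and -0.14 for KRT18 (SE 0.85), and 0 of 7 keratins passed. KC/KK rests on the library labelled CAL-29 KC. Without it and with the line as a block, KRT7 went from 1.25 to -0.08, KRT8 from 0.77 to -0.09, KRT80 from -1.35 to 0.47, KRT19 from -3.28 to -1.23 and KRT18 from 0.97 to 0.24.

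The genes most alike to a member over 17 libraries were those with the same order of lines. On log2(CPM + 0.5) values, KRT19 was most like PTK7 (Pearson r = 0.97), MTG2 (0.97) and ARHGAP8 (0.97), KRT8 like MAGEA3 (0.99), SYT8 (0.99) and IFITM2 (0.99), KRT18 like ADAMTSL4 (0.96), EPOP (0.95) and ECI1 (0.95), and KRT20 like HOXA11-AS (0.99), HOXA11 (0.99) and H4C9 (0.99). KRT7 was most like ENSG00000280071 (0.99), TRPM2 (0.99) and NPRL3 (0.98), KRT80 like BNIP3 (0.98), ZNF655 (0.98) and CCNJ (0.97), and KRT23 like TGM5 (0.95) and RPS10 with RPS10-NUDT3 (0.95), which carry the same values. The libraries fall into 3 lines, so these values are descriptions of line patterns. After the mean of each line was subtracted, KRT19 was most like ZNG1E (r = 0.93), SMCO4 (0.92) and MRPL43 (0.92), KRT18 like PDLIM2 (0.91), ZNF77 (0.87) and FAM3A (0.87), KRT7 like KIF4B (0.85), INPPL1 (0.83) and ANK3 (0.82), KRT8 like TLE2 (0.87), THEM6 (0.87) and HDAC7 (0.86), KRT20 like KIF1C (0.88), CHMP4B (0.85) and ID2 (0.84), KRT23 like HEBP2 (0.91), PLEKHO1 (0.91) and PMPCA (0.87), and KRT80 like PSORS1C1 (0.87) and IRAK1 with its overlapping MIR718 (0.83). Among the members themselves, KRT7 and KRT8 ran together over the 17 libraries after this step (r = 0.61), as did KRT18 and KRT80 (0.70). KRT19 ran against KRT18 (-0.71) and KRT80 (-0.60), and KRT23 against KRT8 (-0.69) and KRT7 (-0.63). These values pool the lines, so a line with a wide spread, such as HT-1376 for KRT19, weighs more. They were not computed for single lines and need not hold in each. By Spearman's rho KRT7 and KRT8 had 0.45, KRT18 and KRT80 0.65, and KRT19 and KRT18 -0.76. The partners KRT8 and KRT18 had an r of 0.16 after line means were subtracted. KRT20 had at most 7 reads in any RT-112 or HT-1376 library, so its values after this step rest mainly on CAL-29. KRT23 had at most 60 reads in any HT-1376 or CAL-29 library, so its values after this step rest partly on few reads. By Spearman's rho, 1 of the 21 genes nearest to the members on levels and 6 of the 21 after line means were subtracted were the same, so the genes named depend on the measure.

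Other genes of the keratin network were taken from fixed lists. Of 12 stratified epithelial keratins listed, 11 had a row, led in level by KRT17, KRT10, KRT14 and KRT13, and KRT6B passed the filter only through W libraries. Of the other 10, 3 rose with WWOX in HT-1376 and 0 fell, against 4.21% of all genes that rose, with a median log2FC of 0.99 against -0.13 over all genes. KRT6A went from 0.13 to 1.70 CPM in K to 34.0 to 68.3 CPM in W libraries (log2FC 5.05, SE 1.25, limma adjusted p = 0.0261), KRT15 from 3.75 to 13.1 to 27.5 to 28.3 (1.83, SE 0.41, limma adjusted p = 0.0166) and KRT17 from 2.70 to 16.9 to 35.2 to 48.5 (2.24, SE 0.53, limma adjusted p = 0.0204). KRT6B, at 0 to 0.43 CPM in K and 4.19 to 8.76 in W libraries, is given without a test. KRT6A and KRT6B are near-identical copies, and reads shared between them could be split. In CAL-29, where 0.33% of all genes passed as higher, 1 of the 10 rose, KRT13 (log2FC 3.14, SE 0.44, limma adjusted p = 0.00661), from 1.66 to 1.79 CPM in K to 8.18 to 30.6 in W, and in RT-112 0 of 10 passed.

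Of the 17 genes of desmosomes and keratin linkers, which anchor the filaments at the membrane and are led in level by JUP, PERP, PLEC and PKP3, 1 rose and 2 fell with WWOX in HT-1376, over the background of 8.59% of all genes that passed there and 4.21% that passed as higher. The plakophilin PKP1 rose from 7.23 to 61.6 CPM in K to 108 to 136 in W libraries (log2FC 2.36, SE 0.48, limma adjusted p = 0.0102). PKP2, another plakophilin, fell from 15.7 to 25.7 CPM to 5.05 to 6.74 (log2FC -1.66, SE 0.41, limma adjusted p = 0.0247), and the cornified envelope protein EVPL from 31.2 to 35.5 CPM to 16.4 to 28.5 (log2FC -0.59, SE 0.17, limma adjusted p = 0.0467). Of 12 luminal regulators, led by ELF3, GATA3, TFAP2C and KLF5, GRHL3 passed the filter only through W libraries. Of the other 11, over the same background, 1 rose (OVOL1, log2FC 2.17, SE 0.46, limma adjusted p = 0.0126) and 1 fell (GRHL2, log2FC -1.21, SE 0.32, limma adjusted p = 0.0332) in HT-1376. None of the 17 and 11 passed in RT-112 or CAL-29. Of 5 uroplakins, the plaque proteins of umbrella cells led by UPK1B, UPK3B, UPK2 and UPK1A, UPK3A passed the filter only through W libraries and 0 of the other 4 passed in any line. Of 10 other intermediate filament genes, 4 passed the filter, led by the lamins LMNA, LMNB2 and LMNB1, and 0 passed the test, while VIM was listed at 0 in RT-112 and HT-1376 and at 0.11 to 19.7 CPM in CAL-29. In none of these lists did a gene pass in the effects of AP-2α or AP-2γ.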

How the data were processed

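The authors made CAGE-seq libraries sequenced as 75 nt single reads, mapped them to hg38 with BWA and then HISAT2 2.0.5 per the labels, grouped them by Paraclu (RECLU), and deposited gene levels as CPM. The annotation, the rule that joins clusters to genes and strand use are not given in the sources used here. Ensembl identifiers were matched to GENCODE 44 (16553 of 16575 genes). Reads on genes were recovered from the CPM steps, 99.92% to 99.98% of values being whole within 0.005 CPM, against at most 21.5% with a wrong step. Libraries of a line differed beyond sampling noise (chi-square per degree of freedom of at least 20.4), so none is a copy of another. The recovery was less sure for RT-112 WC, whose lowest values alone did not give its step, so edgeR was also run without it.

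The 13022 genes that reached 5 CPM in 1 library or more were tested on log2(CPM + 0.5) in limma 3.58.1 (R 4.3.3), with a variance trend in empirical Bayes and p-values adjusted by Benjamini-Hochberg over all of them, and a log2FC on this scale understates changes of low genes. The 5 comparisons with KK used 18 libraries without a block. Effects of WWOX, AP-2α and AP-2γ, the WWOX effect by line and line differences used 17 libraries, without the one labelled CAL-29 KC, and a term for the line. The cell line pairs libraries by design, and after variant means were subtracted libraries of a line correlated at 0.036 to 0.881 in CAL-29, 0.588 to 0.896 in HT-1376 and 0.742 to 0.915 in RT-112. This check used all 18 libraries, so the range of CAL-29 includes the library labelled CAL-29 KC. Line markers had at least 20 CPM in the KK library of 1 line and under 0.5 CPM in the others.

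The alternatives tried were a pseudocount of 0.05 or 2 CPM, testing without the filter, TMM scaling, limma-voom and edgeR 4.0.16 on recovered reads, the line as a block or not, each line left out, and, added after seeing the data, each library left out, the library labelled RT-112 WA left out of the effects over all lines and the comparisons with KK, and KRT8 summed with KRT8P3. The members, the lists and the tests were chosen with earlier results of these data known. Named were the 7 members, the 3 genes most alike to each, the 4 highest genes of each list and those past an adjusted p of 0.05 in a WWOX or AP-2 effect, and look-alike pseudogenes and antisense genes. Fits were tested on simulated data. Python 3.11.15 with pandas 2.3.3 and NumPy 2.4.6 was used, and plots were drawn with matplotlib 3.10.9. A marker gene of a fixed list is not reported here.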

Additional observations from a re-analysis of the deposited data

Results flagged for a closer look

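Among the 21 sets of libraries of 1 member in 1 line, 4 held a library far from the others, and chance alone gives about 1 in 20. KRT7 in RT-112 WC was 15560 CPM, against 12491 in the next library, and KRT19 in RT-112 WC was 7910.0 CPM against 6850 in the next. Both come from the same library. KRT23 in CAL-29 KA was 2.71 CPM against 0.67 CPM in the next. KRT20 in HT-1376 WK was 0.11 CPM, or 2 reads, where the other libraries had none, which is below the limit of 3 reads.

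The WWOX effect on KRT23 was higher in HT-1376 than in CAL-29 by 2.88 on the log2 scale (SE 0.71, limma adjusted p = 0.0423, higher in 3 of 3 pairs of HT-1376 and lower in 2 of 2 of CAL-29). Without CAL-29 KA, the library named above, it was 1.83 and did not pass (limma adjusted p = 0.163).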

How the results depend on the processing

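The cell line as a block in the 5 comparisons with KK called 0 genes in each (63 to 1399 at an unadjusted limma p under 0.05) and changed no call of a keratin, and the effects of WWOX, AP-2α and AP-2γ without that block called 0 genes each. Only edgeR with the replicate block called any in KC/KK, 5 genes. The WWOX effect over all lines called 2 genes with a pseudocount of 0.05 CPM, 70 in limma-voom, 16 in edgeR, 10 in edgeR without RT-112 WC and 0 to 6 when a line was left out. AP-2α called 1 gene in edgeR, and AP-2γ 2 in edgeR and 1 without RT-112 WC. WWOX in RT-112 called 3 genes with a pseudocount of 0.05 CPM, 1 with 2 CPM, 2 without the filter, 2 with TMM scaling and 0 to 15 when a library was left out. WWOX in HT-1376 called 241 with the library labelled CAL-29 KC and 298 (without WK) to 1764 when a library was left out. WWOX in CAL-29 called 39 with a pseudocount of 0.05 CPM, 146 without the filter, 24 in edgeR and 24 to 686 when a library was left out. The F test called 661 without the filter, 231 in limma-voom, 0 with the library labelled CAL-29 KC and 102 to 979 when a library was left out. The type I to type II ratio from KRT18 and KRT8 alone came to a mean of 3.67 for HT-1376 and 7.59 for RT-112. In the CAL-29 libraries it ran from 2.77 to 7.51, so the order of the lines was not kept. The ratio of RT-112 with look-alike reads was 0.62. The causes were not tested.

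Signs turned as follows, in values that passed no test except the last. KRT18 in KA/KK was -0.13 in edgeR and -0.081 to 0.22 when a line was left out, and in WA/KK -0.33 to 0.090. KRT19 in WA/KK was -0.20 without the library labelled RT-112 WA. KC/KK with the block and without the library labelled CAL-29 KC gave -0.084 for KRT7, -0.093 for KRT8 and 0.47 for KRT80, and when a line was left out -0.076 to 1.93, -0.22 to 1.31 and -2.66 to 0.70. KRT19 with AP-2γ ran from -1.07 to 0.25 when a line was left out. In CAL-29, with the library labelled CAL-29 KC, the WWOX effect was -1.22 for KRT7 and -0.63 for KRT8. It ran from -0.069 to 0.43 for KRT7 when a library was left out and was -0.074 for KRT8 summed with KRT8P3. KRT19 in RT-112 ran from -0.16 to 0.32 when a library was left out. With the library labelled CAL-29 KC, the difference of the WWOX effect on KRT8 between HT-1376 and CAL-29 was 0.22, and KRT8 in RT-112 minus CAL-29 was -0.073. KRT8 in RT-112 minus HT-1376 was 0.51 when summed with KRT8P3. Depth limits KRT20 outside CAL-29 and KRT23 outside RT-112, where few reads were counted.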

Other observations

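In the library labelled CAL-29 KC the levels were 7282 CPM of KRT7, 1041 of KRT8, 5205 of KRT18, 13.3 of KRT19, 0.06 of KRT20, 0.54 of KRT23 and 14.3 of KRT80. Of these 7 values, 6 lay within the range of the HT-1376 libraries and 1, that of KRT23, within the range of the other CAL-29 libraries. KRT18 lay above both ranges. Its log2(CPM + 0.5) values correlated with those of HT-1376 libraries at a median Pearson r of 0.94 across genes, and with those of the other CAL-29 libraries at 0.74.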
